A study of Rattus norvegicus with 6 samples.

Results

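Cathepsins are the proteases of the lysosome, and cystatin C is a secreted protein that blocks those of the cysteine class. The 10 genes described here, Ctsa, Ctsb, Ctsc, Ctsd, Ctsh, Ctsk, Ctsl, Ctss, Ctsz and Cst3, were chosen by symbol. Each was matched to 1 of the 43350 gene rows, and where a symbol stood on several rows, protein-coding rows went before others and, among these, the 1 with most counts in all was used. All 10 were among the 26663 rows tested. The tissue was the lumbar 4 to 6 dorsal root ganglia (DRG) of male Sprague-Dawley rats, taken on the side of surgery on day 11. In the CCI group (n = 3) the left sciatic nerve had been constricted with loosely tied ligatures, and in the sham group (n = 3) it had been exposed and not tied, which the sample labels enter as no treatment. By the methods the rats were 6 to 8 weeks old when bought and were kept for 2 to 3 weeks before the experiments, while the labels give no age. The labels speak of a pooled sample, whereas the methods describe 1 rat per sample and state that rats were kept for the groups according to their pain behavior. Whole DRG were used, so neurons, glia, immune cells and fibroblasts were measured together.

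Cathepsins are made as inactive proenzymes, carried to the lysosome by mannose 6-phosphate receptors and activated by acid and proteolysis. Most of them, among them Ctsb, Ctsl and Ctss, cut with a cysteine in the active site, whereas Ctsd uses aspartates and Ctsa a serine. Ctss differs from most of its relatives in remaining active at neutral pH. It trims the invariant chain Cd74 in antigen-presenting cells and, when released by microglia in the spinal cord, frees the chemokine fractalkine (Cx3cl1) from the neuronal membrane, a route known from studies of neuropathic pain.

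The deposited counts summed to 81131861, 80479671 and 75423546 in CCI 1, 2 and 3 and to 87615743, 80046488 and 83695350 in Sham 1, 2 and 3. A gene with 3 counts therefore stood at 0.0341 to 0.0394 CPM (counts scaled to library size), a limit that covers counting error alone. The labels were checked with Atf3, a transcription factor switched on in injured sensory neurons, which read 116, 67.3 and 53.7 CPM in the CCI group and 6.31, 7.98 and 7.17 CPM in the sham group. All 4 injury genes looked at (Atf3, Gal, Npy and Sprr1a) were upregulated in the CCI group by 3.47 to 6.14 on the log2 scale, and CCI 1 was the highest library for each. All 4 were called in every alternative, but Sprr1a, the least abundant of them, went from 5.83 to 1.84 with limma on log2(FPKM + 1). Sham 1 stood apart in skeletal muscle genes. Their summed level was 125 FPKM (a level per length and depth) in Sham 1, against 18.3 FPKM in Sham 3 and 4.26 to 8.40 FPKM in the other 4 libraries. Of 6 muscle genes tested, 4 were lower in the CCI group (Ckm, Mylpf, Actn3 and Acta1, by -4.13, -3.41, -2.84 and -2.78 on the log2 scale). Without Sham 1 the values were -2.01, -1.24, -0.82 and -0.80, and 0 passed the p limit. Without CCI 2 (Ckm -4.14) or CCI 3 (Ckm -3.69) 0 passed it either, with values of much the same size, and limma called 0 of the muscle genes.

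The levels of the family spanned a wide range. Per length, Ctsb was the most abundant at a mean of 652 FPKM over the 6 libraries, rank 19 of 20872 protein-coding rows with a symbol. Cst3 followed at 306 FPKM (rank 45), then Ctsd at 178 FPKM (rank 109), Ctsl at 74.3, Ctsa at 52.4, Ctsh at 39.8 and Ctsz at 25.4 FPKM. Ctss (8.13 FPKM), Ctsc (4.74 FPKM) and the row that holds Ctsk (4.60 FPKM) were the least abundant. Neighbours in this order had separate ranges over the 6 libraries down to Ctss, apart from Ctsa (49.0 to 56.3 FPKM) and Ctsh (35.4 to 49.0 FPKM), which touched through CCI 3. Cst3 ran from 200.5 to 400.1 FPKM, above the 171 to 186 FPKM of Ctsd in every library. The ranges of Ctss (4.89 to 13.2 FPKM), Ctsc (3.88 to 5.35 FPKM) and the Ctsk row (4.20 to 5.04 FPKM) overlapped. Within every library Ctss was above Ctsc and the Ctsk row, though by little in Sham 1 (4.8901 against 4.8835 FPKM for the Ctsk row). Ctsc was above the Ctsk row in the CCI libraries and below it in the sham libraries, so the order of these rows is not resolved. Ctsb alone made up 62.2% to 63.1% of the summed FPKM of the 9 cathepsins in every library.

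**Figure D1:**
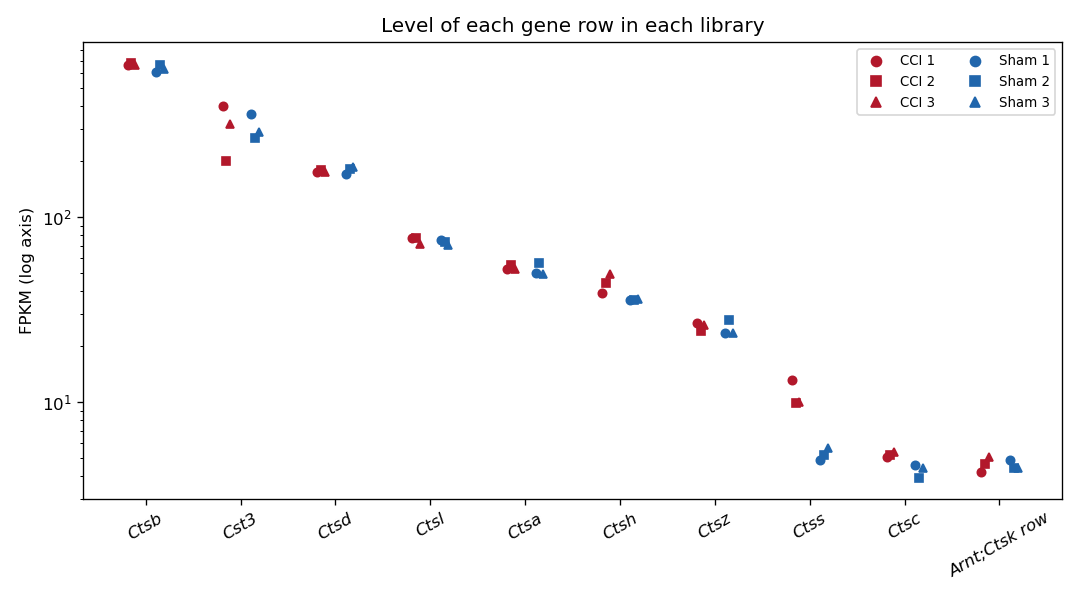
FPKM of the 10 gene rows in each library on a log axis, ordered by mean level, with CCI libraries in red, sham libraries in blue and the replicate number given by the marker shape. Ctss is the row in which the groups lie farthest apart (9.90 to 13.2 against 4.89 to 5.64 FPKM), and Cst3 is spread widely within the CCI group (200.5 to 400.1 FPKM).

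The comparison of the CCI group with the sham group asks which of these genes changed in the ganglia of the injured nerve. By edgeR's quasi-likelihood test, with the limits of an unadjusted p below 0.05 and a change of 0.58 or more in size on the log2 scale, 1 of the 10 genes (Ctss) was upregulated, against 2.57% of all rows tested. None (0 of 10) was downregulated, against 1.26% of all rows, and no gene fell with an unadjusted p under 0.05 by edgeR, while DESeq2 and limma also called 0 lower at these limits. At a Benjamini-Hochberg adjusted p under 0.05, edgeR called 0 of 10, against 0.0938% of all rows (25 rows), DESeq2 called 1 (Ctss) and limma 0, and 3 genes (Ctss, Ctsh and Ctsc) had an unadjusted p under 0.05 by edgeR, a limit passed by 10.7% of all rows in either direction. In the same 3 genes every CCI library lay above every sham library, against 8.63% of all rows, and in 0 of 10 every CCI library lay below, against 8.7% of all rows. The median log2 fold change was 0.03 for the 10 genes and 0.01 for all rows tested.

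**Figure D2:**
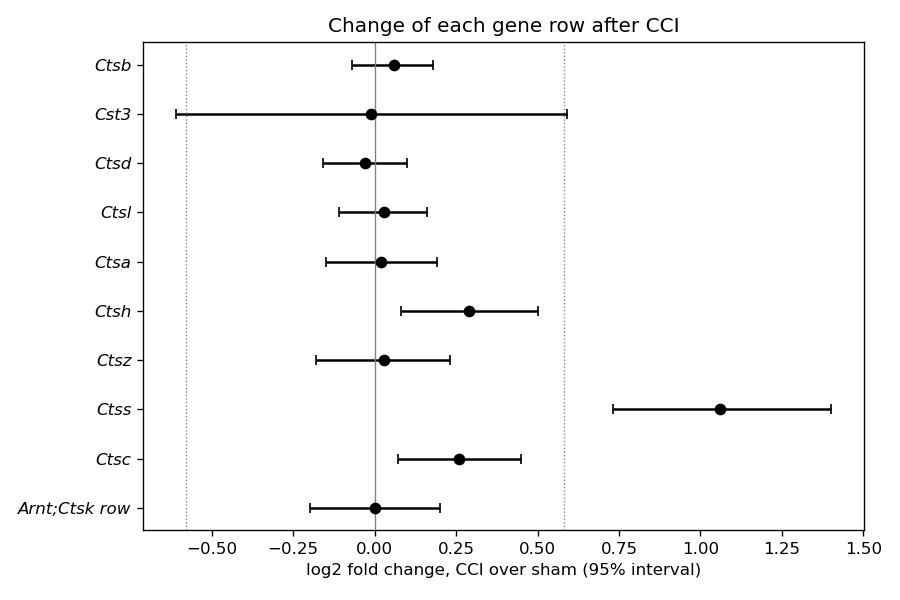
Log2 fold change of each gene row, CCI over sham (n = 3 each), with its 95% interval from edgeR, where dotted lines mark 0.58 in either direction. The interval of Ctss runs from 0.73 to 1.40 and lies beyond the upper line, those of Ctsh and Ctsc lie above 0, and that of Cst3 is the widest, from -0.61 to 0.59.

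Ctss, the cysteine protease of antigen-presenting cells, lies at chr2:197651914-197679769 in the rat genome that the methods call V101. It read 26.2, 19.6 and 19.8 CPM in CCI 1, 2 and 3 (2128, 1582 and 1507 counts) and 9.71, 10.4 and 11.4 CPM in Sham 1, 2 and 3 (854, 822 and 940 counts). CCI 1 was the highest library, CCI 2 and CCI 3 were nearly level, and the groups did not overlap. The fold was 2.09 (95% interval 1.65 to 2.63), or 1.06 on the log2 scale with a standard error of 0.14 (edgeR adjusted p = 0.0789). The adjusted p ranged from 1.51e-08 with DESeq2 to 0.269 with the replicate number as a block. Ctss made up 1.25%, 0.917% and 0.944% of the summed cathepsin FPKM in the CCI libraries and 0.498%, 0.491% and 0.556% in the sham libraries.

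RefSeq promoter windows, from 250 bases before to 50 bases after a transcript start on GRCr8, were found for 9 of the 10 genes, with no entry matched for Ctsb. Those of Ctss, Ctsh and Ctsc are shown because these are the 3 genes whose groups did not overlap. They are written on the strand of the gene, 5′ to 3′, and capitals mark CACGTG, the core of the E-box read by Tfeb and its relatives, and GAGGAAG, a purine-rich core read by Spi1 (PU.1), the latter also as CTTCCTC where it lies on the opposite strand. The Ctss window is chr2:185775146-185775445 (plus strand), that of Ctsh chr8:99488506-99488805 (plus) and that of Ctsc chr1:151440799-151441098 (plus). The start used lies 80 bases inside the outer bound of the Ctss gene and 189 bases inside that of Ctsc.
Ctss: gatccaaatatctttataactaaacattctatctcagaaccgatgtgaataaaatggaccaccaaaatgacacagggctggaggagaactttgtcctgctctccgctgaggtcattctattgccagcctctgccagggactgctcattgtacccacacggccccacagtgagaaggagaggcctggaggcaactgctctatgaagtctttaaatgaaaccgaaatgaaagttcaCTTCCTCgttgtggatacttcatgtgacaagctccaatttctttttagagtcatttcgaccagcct
Ctsh: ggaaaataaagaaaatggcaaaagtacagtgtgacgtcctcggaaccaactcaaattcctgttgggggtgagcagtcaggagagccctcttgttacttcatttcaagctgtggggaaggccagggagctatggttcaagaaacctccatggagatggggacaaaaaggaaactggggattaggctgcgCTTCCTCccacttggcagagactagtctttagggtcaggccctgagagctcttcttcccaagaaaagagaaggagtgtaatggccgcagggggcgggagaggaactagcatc
Ctsc: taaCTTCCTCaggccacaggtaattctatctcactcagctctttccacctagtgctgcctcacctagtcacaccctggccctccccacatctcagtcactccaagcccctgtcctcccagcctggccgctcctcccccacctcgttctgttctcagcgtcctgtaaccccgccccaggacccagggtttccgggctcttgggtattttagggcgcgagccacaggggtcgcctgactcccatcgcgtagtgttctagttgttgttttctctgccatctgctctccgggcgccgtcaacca
GAGGAAG begins at position -16 from the start in Ctss, -62 in Ctsh and -247 in Ctsc, in each case on the opposite strand, and none of the 3 windows holds CACGTG. On either strand GAGGAAG was in 5 of the 9 windows (Ctsk and Ctsz were the others) and in 12.4% of all 33469 promoter windows. A match describes letters in a window and not a bound site.

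Of 15 macrophage markers, 7 were called in the same direction as Ctss, against 2.57% of all rows tested. At an adjusted p under 0.05 edgeR called 0 of the 15. By DESeq2 the adjusted p of the 7 ran from 2.22e-05 (C1qc) to 0.0931 (Fcgr3a), and all but Fcgr3a were under 0.05. By limma it was 0.187 or more for each of the 7. The 15 markers summed to 99.6, 84.7 and 69.3 FPKM in CCI 1, 2 and 3 and to 46.0, 45.1 and 57.2 FPKM in Sham 1, 2 and 3. Every CCI library was above every sham library, and CCI 1 was again the highest. The 7 passed the limits above, and 0 were downregulated, by edgeR, DESeq2 and limma alike (0 lower at an unadjusted p under 0.05), with a median log2 fold change of 0.52, and none of the 15 was at 0 in a group. The most abundant was C1qc, a chain of complement C1q (12.3 FPKM on average), at 24.1, 19.2 and 15.4 CPM in the CCI group and 9.43, 9.39 and 10.9 CPM in the sham group (log2 fold change 0.98, edgeR adjusted p = 0.124). The other 6 were the Fc receptor Fcgr3a (1.54), the C1q chains C1qa (1.13) and C1qb (1.12), the signalling adaptor Tyrobp (0.88), the growth factor receptor Csf1r (0.75) and Cd4 (0.68), as log2 fold changes. Cd4 is not confined to macrophages, since the paper cites earlier work in which CD4+ T cells entered the injured DRG. The sum of the 15 therefore need not come from macrophages alone. Fcgr3a no longer passed the p limit without CCI 3 (log2 fold change 1.23) or without Sham 1 (1.52), and was 0.59 with limma on log2(FPKM + 1). Every CCI library lay above every sham library in 8 of the 15 markers, against 8.63% of all rows. The groups overlapped in the other 7 (Aif1, Adgre1, Itgam, Mrc1, Cd163, Cd14 and Fcer1g, named after their values were seen), among which Adgre1, Cd163 and Cd14 had folds of 1.01, 0.998 and 1.02.

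In whole ganglia, a change in the number of cells of a type and a change in RNA per cell cannot be told apart, and the part of macrophage content in the Ctss result was not tested. The ratio of Ctss FPKM to the macrophage sum was 0.132, 0.117 and 0.145 in the CCI libraries and 0.106, 0.114 and 0.0986 in the sham libraries. These groups did not overlap, but CCI 2 and Sham 2 were close. The ratio of Ctss to Cd68, the lysosomal glycoprotein of macrophages, was 2.85, 2.73 and 3.02 against 2.46, 2.55 and 2.55, also without overlap, whereas its ratio to Csf1r (0.762 to 0.969 against 0.645 to 0.832) and to Tyrobp (2.60 to 3.02 against 2.28 to 3.03) overlapped. These ratios are given as descriptions with no test.

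**Figure D3:**
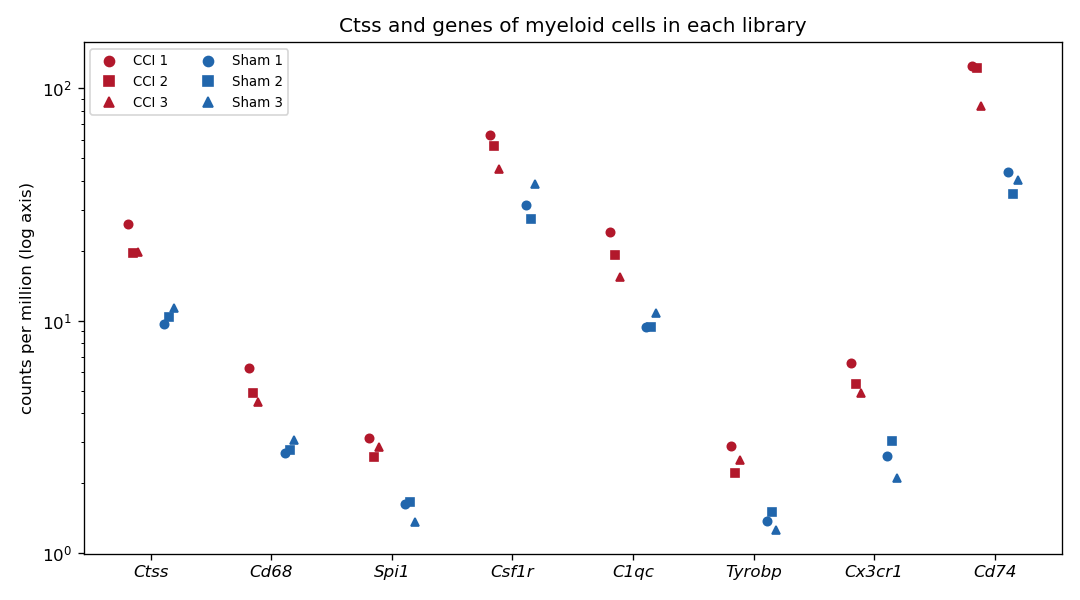
CPM of Ctss and of 7 genes of myeloid cells in each library on a log axis, CCI in red and sham in blue, with the replicate number given by the marker shape. The genes shown are a selection, and 7 of the 15 macrophage markers, none of them drawn here, overlapped between groups. In all 8 genes drawn the CCI libraries lie above the sham libraries, for Ctss at 19.6 to 26.2 against 9.71 to 11.4 CPM.

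Ctsh and Ctsc, both enzymes that trim peptides from their amino end, showed smaller differences. Ctsh, an aminopeptidase at chr8:97439161-97458267, read 74.7, 84.4 and 93.4 CPM in the CCI group and 68.3, 68.8 and 69.9 CPM in the sham group. The sham libraries were tightly grouped and the CCI libraries spread, with CCI 1 nearest to them and no overlap. The fold was 1.22 (95% interval 1.06 to 1.41), a log2 fold change of 0.29 with a standard error of 0.09 (edgeR adjusted p = 0.319), which is under the limit of 0.58. Ctsc, a dipeptidyl peptidase that activates the granule proteases of leukocytes, lies at chr1:151918571-151949983 and read 33.2, 33.7 and 34.8 CPM against 30.0, 25.6 and 29.2 CPM. Its CCI libraries were nearly level and above all sham libraries. The fold was 1.20 (95% interval 1.05 to 1.37), a log2 fold change of 0.26 with a standard error of 0.08 (edgeR adjusted p = 0.317).

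The other cysteine cathepsins were not called, and their values are given with the interval of the difference. Ctsb, an endopeptidase that also removes dipeptides from the carboxyl end, lies at chr15:46316741-46337612 and read 1402, 1437 and 1405 CPM in the CCI group and 1297, 1424 and 1365 CPM in the sham group, where Sham 2 overlapped the CCI range. Its fold was 1.04 (95% interval 0.95 to 1.14, edgeR adjusted p = 0.797). Ctsl, an endopeptidase at chr17:1872848-1879279, read 128 to 139 CPM in the CCI group and 129 to 136 CPM in the sham group, with a fold of 1.02 (95% interval 0.929 to 1.12). Ctsz, a carboxypeptidase at chr3:172527107-172537877, read 36.0 to 39.6 CPM against 35.2 to 41.4 CPM, with a fold of 1.02 (95% interval 0.882 to 1.17). In these genes the groups overlapped and the edgeR adjusted p was 0.797 or more.

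Ctsk, the collagen-degrading enzyme best known from osteoclasts, has no row of its own. The assembled locus at chr2:196594086-196666446 joins it with Arnt, a transcription factor of the hypoxia and xenobiotic responses, and the reads of the 2 genes cannot be told apart. This row read 41.0, 45.0 and 48.8 CPM in the CCI group and 47.6, 43.7 and 43.7 CPM in the sham group. CCI 1 was the lowest library, CCI 3 the highest, and the groups overlapped. The fold was 0.998 (95% interval 0.87 to 1.15, edgeR adjusted p = 0.996), a value that belongs to both genes together. Of 5 osteoclast markers, 1 was above the filter on low values (Tnfrsf11a, the receptor for the osteoclast factor RANKL), and it was not called (log2 fold change 0.31, edgeR adjusted p = 0.651). The summed level of the 5 markers was 1.33, 1.65 and 1.90 FPKM in the CCI libraries and 1.35, 1.08 and 1.45 FPKM in the sham libraries.

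Ctsd, the aspartic cathepsin and a main endopeptidase of the lysosome, lies at chr1:215541542-215553451. It read 390, 397 and 385 CPM in the CCI group and 379, 405 and 417 CPM in the sham group, with Sham 1 the lowest and Sham 3 the highest of all 6. The fold was 0.976 (95% interval 0.892 to 1.07, edgeR adjusted p = 0.885). Its promoter window is shown as the only window of the 9 that holds CACGTG, with capitals as above (chr1:206968772-206969071, minus strand, written on the strand of the gene).
Ctsd: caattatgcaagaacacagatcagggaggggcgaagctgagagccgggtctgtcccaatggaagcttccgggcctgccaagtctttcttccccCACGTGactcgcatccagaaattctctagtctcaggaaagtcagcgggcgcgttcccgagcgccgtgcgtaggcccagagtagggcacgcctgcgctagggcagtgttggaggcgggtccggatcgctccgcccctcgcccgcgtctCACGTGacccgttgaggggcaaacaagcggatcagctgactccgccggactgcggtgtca
CACGTG begins at positions -157 and -10, and the match at -10 lies within the longer palindrome TCACGTGA, so the motifs overlap. CACGTG was in 6.42% and TCACGTGA in 0.777% of all promoter windows. The GC box GGGCGG was in 7 of the 9 windows against 33.1% of all windows, and TATAAA was in 1 of 9, that of Ctss, against 14.2%, counted on both strands. The window of Ctss was the poorest in G and C of the 9 at 45.3%, and that of Ctsl the richest at 66.7%, where the median of all windows was 51.7%.

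Ctsa, a serine carboxypeptidase that also protects the lysosomal enzymes Neu1 and Glb1 from breakdown, lies at chr3:161298822-161304625. It read 137 to 143 CPM in the CCI group and 130.6 to 149.7 CPM in the sham group, so the CCI range lay within the sham range. The fold was 1.01 (95% interval 0.904 to 1.14, edgeR adjusted p = 0.953).

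Cst3 encodes cystatin C, the secreted inhibitor of the cysteine cathepsins, at chr3:143219686-143223615. It read 344, 172 and 271 CPM in CCI 1, 2 and 3 and 311, 233 and 249.8 CPM in Sham 1, 2 and 3. CCI 1 was the highest and CCI 2 the lowest of the 6 libraries, so the CCI group enclosed the sham group. The fold was 0.991 (95% interval 0.654 to 1.5, edgeR adjusted p = 0.993), and the coefficient of variation was 33.0% in the CCI group and 15.6% in the sham group. Leaving out 1 library moved its log2 fold change between -0.26 (without CCI 1) and 0.22 (without CCI 2), so its direction was set by single libraries.

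Set against its inhibitor, the summed FPKM of the 7 cysteine cathepsins divided by the FPKM of Cst3 was 2.06, 4.21 and 2.62 in CCI 1, 2 and 3 and 2.10, 3.03 and 2.71 in Sham 1, 2 and 3. CCI 2 had the highest ratio and CCI 1 the lowest, and the groups overlapped. The mean was 2.96 ± 1.12 in the CCI group and 2.61 ± 0.476 in the sham group (SD, n = 3). The difference of 0.35 was smaller than the spread within the CCI group, and without CCI 2 it turned to -0.273. The cathepsin sum itself was 825, 844 and 834 FPKM in the CCI libraries and 760.0, 813 and 778 FPKM in the sham libraries, without overlap (834 ± 9.98 against 784 ± 26.8 FPKM, SD, n = 3). Most of the sum was Ctsb, whose own groups overlapped (659.5 to 678.7 against 610.7 to 662.9 FPKM). The ratios and sums are of RNA levels and were not tested.

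**Figure D4:**
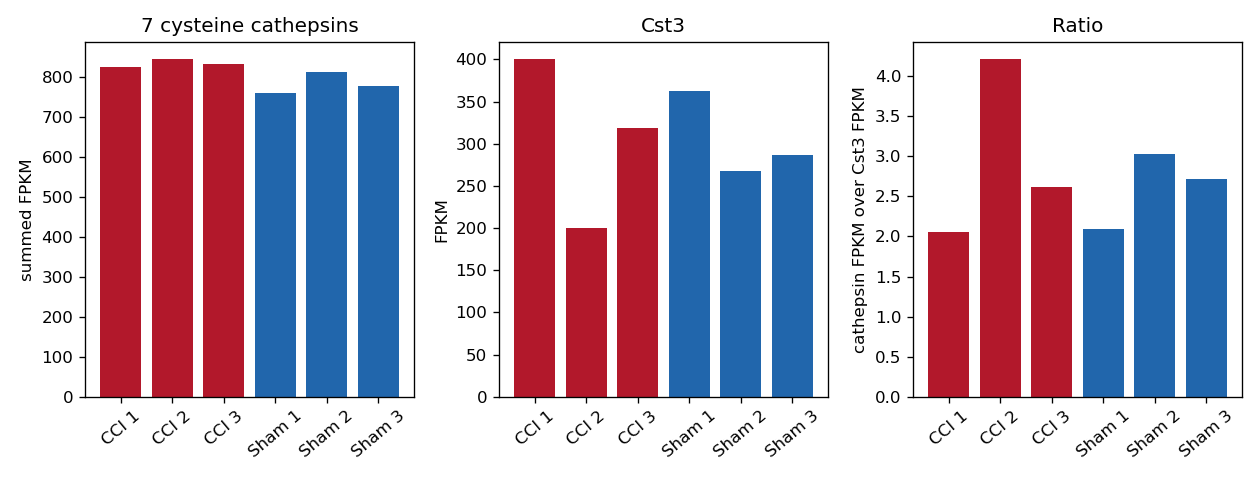
Summed FPKM of the 7 cysteine cathepsins (left), FPKM of Cst3 (middle) and their ratio (right) in each library, CCI in red and sham in blue, each bar being 1 library. The cathepsin sum lies between 825 and 844 FPKM in the CCI libraries and between 760.0 and 813 FPKM in the sham libraries, whereas Cst3 lies between 200.5 FPKM in CCI 2 and 400.1 FPKM in CCI 1.

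Another 7 lists, called the lysosomal lists here, hold genes of the lysosome and related genes. Among the latter are inhibitors of cysteine proteases and transcription factors of lysosomal and myeloid genes. Over these lists, 99 genes in all, 94 were found and 83 tested. Of these 3 (Acp5, Cd68 and Spi1) were upregulated at the limits above, which is 3.61% against 2.57% of all rows, and 0 were downregulated by edgeR, DESeq2 or limma. The median on the log2 scale was 0.04. Of the 35 tested lysosomal hydrolases and activators, 1 was upregulated. This was Acp5, the tartrate-resistant acid phosphatase, at 2.10, 2.48 and 1.82 CPM in CCI 1, 2 and 3 against 1.05 to 1.31 CPM in the sham group (log2 fold change 0.81, edgeR adjusted p = 0.261). Its level was low and its log2 fold change was 0.40 with limma on log2(FPKM + 1). The most abundant of the list, Psap, the precursor of the saposin activators (440.0 FPKM on average), had a fold of 1.0 (95% interval 0.856 to 1.17), and the median of the list was 0.07. An unadjusted p under 0.05 by edgeR was reached by 6 of the list, against 10.7% of all rows in either direction. The 6 were 4 higher (Acp5, Arsb 0.46, Grn 0.19 and Hexa 0.17) and 2 lower (Gla -0.44 and Lipa -0.15, both without overlap). The row of Lipa is joined with Ifit1bl, so its value belongs to both genes. Apart from Acp5 these were named after their values were seen.

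Of 15 lysosomal membrane proteins, 1 was upregulated, Cd68, at 6.28, 4.91 and 4.49 CPM against 2.71, 2.78 and 3.06 CPM. Its log2 fold change was 0.87 (adjusted p = 0.168 by edgeR, 0.00242 by DESeq2 and 0.215 or more by limma). Its groups did not overlap, and the list had a median of 0.06, with Lamp1, the main glycoprotein of the lysosomal membrane, as the most abundant at 75.1 FPKM (fold 0.889, 95% interval 0.716 to 1.1). In this list 3 genes had an unadjusted p under 0.05 by edgeR, against 10.7% of all rows in either direction. They were Cd68, Cd63 (log2 fold change 0.37, edgeR adjusted p = 0.15) and Ctns (0.25), the latter 2 named after their values were seen. Every CCI library lay above every sham library in each, against 8.63% of all rows. None of 16 tested subunits of the V-ATPase, the proton pump that acidifies the lysosome, was called (median 0.02), and Atp6v0c was the most abundant at 254 FPKM (log2 fold change 0.20, edgeR adjusted p = 0.312, every CCI library above every sham library). In that list 5 subunits had an unadjusted p under 0.05 by edgeR, 2 of them higher and 3 lower, against 10.7% of all rows in either direction. DESeq2 and limma also called 0 of the subunits at the limits. None of 9 tested genes for sorting to the lysosome was called by edgeR, DESeq2 or limma (median -0.00). Of the mannose 6-phosphate receptors in it, M6pr, the most abundant at 19.9 FPKM, had a fold of 1.08 (95% interval 0.911 to 1.28). The other, Igf2r, named after its values were seen, was the 1 gene of the list with an unadjusted p under 0.05, with a log2 fold change of -0.16 and every CCI library below every sham library.

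Of 5 tested transcription factors of lysosomal and myeloid genes, 1 was upregulated. This was Spi1, the myeloid factor PU.1, at 3.15, 2.60 and 2.86 CPM in the CCI group and 1.64, 1.66 and 1.37 CPM in the sham group. Its log2 fold change was 0.88 (adjusted p = 0.168 by edgeR, 0.00944 by DESeq2 and 0.184 or more by limma). Its groups did not overlap, and it fell under the fold limit with limma on log2(FPKM + 1) (0.44). Tfe3, the most abundant at 9.94 FPKM and a relative of Tfeb, had a fold of 1.05 (95% interval 0.953 to 1.15), and Tfeb, the regulator of lysosome formation, named after its values were seen, had a fold of 0.904 (95% interval 0.722 to 1.13).

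Of the other cathepsins, 1 of 5 was tested, Ctsf, at 43.2 FPKM with a fold of 1.01 (95% interval 0.881 to 1.16), while Ctse, Ctsg and Ctsw were under the filter and Ctso was not matched. Of 10 other inhibitors of cysteine proteases 2 were tested, and neither was called by edgeR, DESeq2 or limma, with 0 at an unadjusted p under 0.05. Cstb, the cytosolic stefin B, was the most abundant at 70.7 FPKM (fold 1.03, 95% interval 0.907 to 1.17), and Csta, Stfa2 and Stfa3 had 0 counts in all 6 libraries. Cst7, the leukocyte inhibitor cystatin F, named after its values were seen, was under the filter and read 0.75, 0.644 and 0.577 CPM in the CCI group and 0.273, 0.378 and 0.302 CPM in the sham group, with no overlap. With no filter it was called higher (log2 fold change 1.05, edgeR adjusted p = 0.437), and Kng1, also named after its values were seen, was called lower on counts of 0 in the CCI group and 4 in each sham library (edgeR adjusted p = 0.481).

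Among the lysosomal lists and the immune partners of Ctss, the largest median shift was that of the immune partners. This list of 10 genes holds Cd74, MHC class II genes, fractalkine with its receptor, and the protease receptor F2rl1. Of these 6 were upregulated, against 2.57% of all rows tested, and 1 was downregulated, against 1.26%. The median log2 fold change was 1.24, and edgeR called 0 of the 10 at an adjusted p under 0.05. By DESeq2 the adjusted p of the up- and downregulated genes ran from 8.4e-15 (Cd74) to 0.0484 (Cx3cl1). By limma it was 0.158 or more for each. Cd74, the invariant chain trimmed by Ctss and the most abundant at 49.3 FPKM, read 125, 123 and 83.4 CPM in the CCI group and 43.7, 35.0 and 40.3 CPM in the sham group. CCI 3 was the lowest of the CCI libraries, still above every sham library, and the fold was 2.78 (95% interval 2.09 to 3.71, edgeR adjusted p = 0.0712). The class II genes RT1-Ba (2.15), RT1-DMb (1.47), RT1-Da (1.38) and RT1-Db1 (1.38) were upregulated too, as log2 fold changes. The other 2 class II genes, RT1-Bb (0.66, and 0.11 to 1.39 over left-out libraries) and RT1-DMa (0.48), overlapped between groups and were not called. RT1 genes resemble each other in sequence, so their reads are shared less certainly than those of other genes, and RT1-Ba was 1.35 without CCI 3. RT1-DMb was 0.84 with limma on log2(FPKM + 1).

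Fractalkine and its receptor moved in opposite directions. Cx3cr1, the receptor on macrophages and microglia, read 6.58, 5.34 and 4.89 CPM in the CCI group and 2.63, 3.05 and 2.10 CPM in the sham group (log2 fold change 1.11, edgeR adjusted p = 0.136). Cx3cl1, the membrane-bound chemokine that Ctss can release, read 2.48, 3.07 and 3.84 CPM against 4.98, 4.85 and 5.42 CPM (log2 fold change -0.70, edgeR adjusted p = 0.279). Both genes were without overlap, and CCI 1 was the extreme library in each. The call of Cx3cl1 was lost without CCI 1, where its log2 fold change was -0.56, and with limma on log2(FPKM + 1), where it was -0.37.

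**Figure D5:**
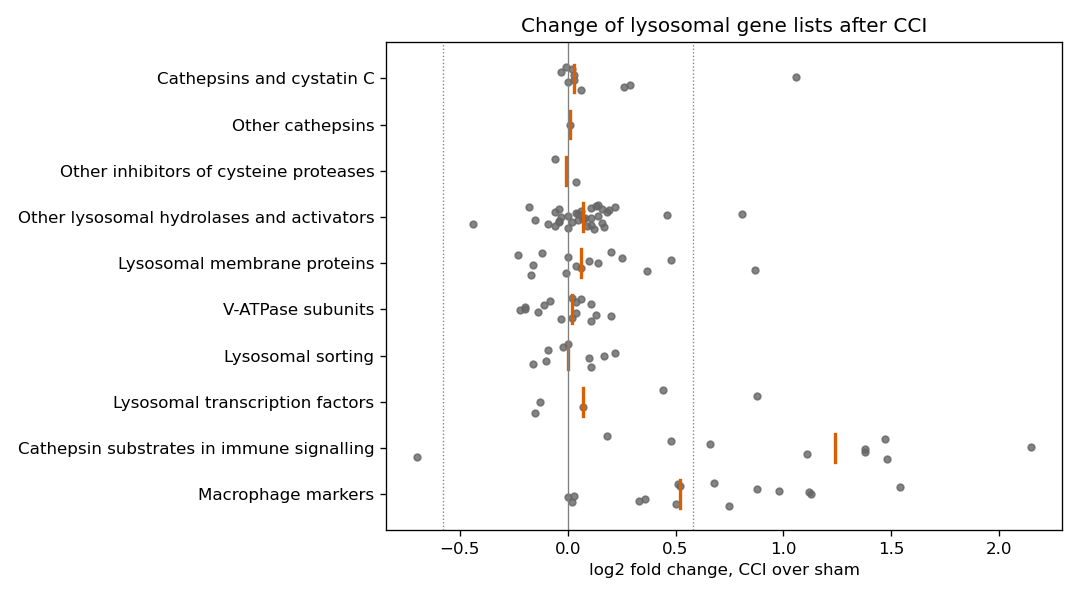
Log2 fold changes, CCI over sham, of the tested genes of each list, 1 point per gene, with the median of the list as an orange bar and dotted lines at 0.58 in either direction. The other lysosomal lists have medians between -0.01 and 0.07, whereas the medians of the macrophage markers (0.52) and of the immune partners of Ctss (1.24) lie higher.

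Markers of other cells in the ganglia were examined for the same libraries. No T cell or B cell marker passed the filter, and their summed levels were at most 1.08 and 1.06 FPKM in any library. With no filter the T cell marker Cd8a, named after its values were seen, was called higher on counts of 1, 4 and 19 in CCI 1, 2 and 3 and 0 in the sham group (edgeR adjusted p = 0.494). Of 3 tested neutrophil markers, edgeR, DESeq2 and limma called 0 (0 at an unadjusted p under 0.05), and their sum was highest in Sham 1 (27.0 FPKM), with S100a8 the most abundant (6.66 FPKM). Without Sham 1 the direction turned, S100a8 from -0.49 to 0.31 and S100a9, named after its values were seen, from -0.14 to 0.94, where S100a9 passed the limits (edgeR adjusted p = 0.355). Satellite glia (5 tested, Glul at 76.5 FPKM) and neuron markers (10 tested, Tubb3 at 1248 FPKM) had 0 genes at the limits by each of the 3 tools, with medians of -0.19 and -0.15. However, 1 and 6 of them had an unadjusted p under 0.05 by edgeR, against 10.7% of all rows in either direction. Of the 6 neuron markers 2 were higher, Tubb3 (log2 fold change 0.31) and Prph (0.25), each with every CCI library above every sham library, against 8.63% of all rows. Another 4 were lower, Nefl (-0.57), Nefh (-0.55), Scn11a (-0.15) and Calca (-0.15), each with every CCI library below every sham library, against 8.7% of all rows. The satellite glia gene with such a p, Cdh19, was higher (0.37). The satellite glia gene Fabp7 was lower (-0.55, unadjusted p = 0.0779 by edgeR), with every CCI library below every sham library. Apart from Tubb3, these genes were named after their values were seen. The neurofilament chain Nefl had an adjusted p of 0.0457 by edgeR. Nefl and Nefh passed the fold limit as well without CCI 2 (-0.61 and -0.60) and without Sham 1 (-0.59 for both). Of 6 Schwann cell markers tested (Mbp, Prx, Pmp22, Cldn19, Mag and Ncmap, with Pmp22 the most abundant at 657 FPKM), 0 were above zero and 0 were called by edgeR, DESeq2 or limma, with a median of -0.16 and 1 at an unadjusted p under 0.05 (Ncmap, -0.26). Their sum was 771, 854 and 1018 FPKM in CCI 1, 2 and 3 and 1003, 938 and 918 FPKM in Sham 1, 2 and 3, lowest in CCI 1. The fibroblast sum was also lowest in CCI 1, at 389 FPKM against 580.3 to 685 FPKM in the other 5 libraries. CCI 1 was the highest library for Ctss and for the sum of the macrophage markers, and Ctss without CCI 1 had a log2 fold change of 0.91 (edgeR adjusted p = 0.0647). Fibroblast (Dcn, 204 FPKM), endothelial (Cdh5, 5.68 FPKM) and erythroid markers (Hbb, 36.3 FPKM) had 0 called of 5, 3 and 3 tested by the same tools, and 0 at an unadjusted p under 0.05. The muscle genes were high in Sham 1, and Ctss without Sham 1 had a log2 fold change of 1.01 (edgeR adjusted p = 0.228), with every CCI library above both of the other sham libraries.

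Finally, the protein-coding genes most similar in pattern were sought among 10420 rows with a mean of at least 5 CPM, by Pearson's r of log2 CPM over the 6 libraries, where group differences, depth and tissue makeup are shared by all genes. For Ctss these were A3galt2, a glycosyltransferase (r = 0.997), Tgm1, a transglutaminase (0.996), the neuropeptide Gal (0.996), Midn (0.994) and the autophagy gene Atg12 (0.993), and 160 rows reached 0.95. Gal rose far more than Ctss, from 1.90 to 2.85 CPM in the sham group to 31.3 to 83.2 CPM in the CCI group, so a high r here goes with changes of unlike size. For the row of Ctsk and Arnt they were Ptpn21 (0.984), Hspa2 (0.98), Carmil1 (0.978), LOC100910130 (0.977) and Ints4 (0.976). For Cst3 they were the joined row of Cryzl1 and Donson (0.998), Tmem219 (0.989), Chuk (0.989), Zfp318 (0.983) and Prpf38b (0.98), none of which was called. With 6 libraries in 2 groups such values are a description.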

How the data were processed

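Reads were mapped by the authors to a rat genome named V101 in the methods, and transcripts were assembled. The submitters' processing notes name HISAT2 2.0 and StringTie 1.3.0, and whether counting used strand is not stated. The deposited counts are whole reads per gene row, without normalization. The deposited FPKM values were made by the authors per length and depth, and list a count of 0 as 0.0001. Rows without a symbol (6849) held 5.37% to 5.72% of a library's counts.

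Members and lists were chosen with earlier results of these data known. The 26663 rows whose FPKM averaged 0.5 or more were fitted with the quasi-likelihood test of edgeR 4.0.16, TMM factors and a trended prior (2.52 degrees of freedom). Calls used an unadjusted p under 0.05 with a log2 fold change of at least 0.58, as in the study's methods, and separately a Benjamini-Hochberg adjusted p under 0.05. CPM are counts over the library total scaled by its TMM factor. Genes named beyond the 10 include those called in each list, the most abundant of each list and the 5 most similar in pattern to Ctss, Ctsk and Cst3. Other genes were named too, some as members of a list described in full and others after their values were seen. Of the Schwann cell markers, 1 gene is not reported here. Alternatives were DESeq2 1.42.0, its size factors in edgeR, limma 3.58.1 on log2(FPKM + 0.1) and log2(FPKM + 1), an FPKM average of 1 or more, rows without any filter, protein-coding rows with a symbol, the replicate number as a block and leaving out each library. The ratio without the joined Ctsk row was added after seeing the data. No replicate pair was alike within sampling noise (chi-square per degree of freedom 57.3 to 84.2). R 4.3.3, Python 3.11.15, pandas 2.3.3, numpy 2.4.6, scipy 1.17.1 and matplotlib 3.10.9 were used.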

Additional observations from a re-analysis of the deposited data

How the results depend on the processing

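Ctss was called higher in all 14 alternatives, with a log2 fold change between 0.91 (without CCI 1) and 1.13, and the other 9 genes were called in none of the 14. At an adjusted p under 0.05, 1 of the 10 genes (Ctss) was called with DESeq2 and 1 (Ctss) with protein-coding rows alone, where fewer rows were tested (12988), against 0 with edgeR on all rows, and 0 whichever library was left out. Rows called higher numbered 686, but 400 with limma on log2(FPKM + 1) and 328 with protein-coding rows alone, and rows called lower numbered 336, but 150 and 113. For limma the cause was not tested. Over the lysosomal lists and the immune partners of Ctss together, 9 genes were called higher, but 5 with protein-coding rows alone. The immune partners went from 6 to 2, with 4 in place of 10 rows tested, and the lysosomal lists had 3 in both. With limma on log2(FPKM + 1) the lysosomal lists had 1, without Sham 1 they had 5 (Laptm5 and Irf8 added) and without Sham 3 they had 4 (Arsb added). With no filter they had 4 higher (Cst7 added) and 1 lower (Kng1), the sole lower call of these lists in any alternative. Laptm5, Irf8, Arsb, Cst7 and Kng1 were named after their values were seen. The replicate block called 617 rows higher, 318 lower, 1 of the 10 genes and 9 of those lists, 3 of them lysosomal and 6 immune partners. Libraries of the same number did not deviate together (r = -0.0106, -0.0218 and -0.0547), and pairs of unlike number had r of -0.0153 to 0.0365. No deviation shared by number was seen, but this cannot exclude a pairing that leaves no such mark. The difference of the ratio of cathepsins to Cst3 ranged from -0.273 to 0.802 over left-out libraries, and was 0.349 without the joined row of Ctsk and Arnt. The changes of Ctsh and Ctsc lay under the fold limit, which does not depend on the number of rats. With 3 rats a group, an interval that holds 0 does not show that a gene was unchanged.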
